A study of Mus musculus with 2 samples.

Results

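Retained-intron transcripts are annotated forms of a gene that keep intron sequence which other forms of the same gene splice out. The 1246 described here are all known transcripts with reads in the deposited long-read tables whose annotated type is retained intron, out of 21848 such transcripts in the GENCODE M21 annotation (5.70%). They were chosen by that annotated type and by having reads in either library, and not by how many reads they had. Replicate 1 held 791 of them among 58133 transcript models with reads, and replicate 2 held 897 among 63023.

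The study profiled heart tissue of female B6CASTF1/J mice, an F1 cross, aged 18 to 20 months, in 1 group of 2 libraries made from 2 µg of total RNA each. No treatment or second genotype was included, so the data allow a description of the 2 libraries and a comparison between them. The labels give each library its own biological sample and the same donor entry. Whether a library holds RNA of 1 animal is not stated. With 1 library on each side, p-values set the difference between 2 libraries against counting error alone, with reads taken as independent molecules, and contain no estimate of the spread between libraries.

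An intron can stay in a messenger RNA when the spliceosome does not remove it in time, and short introns with weak splice sites and high GC content are known to be kept more often. Transcripts with a kept intron often stay in the nucleus or are degraded by nonsense-mediated decay, since the intron usually brings a premature stop codon. Annotation catalogues also use the retained-intron type for partial transcripts that begin or end inside an intron, and these differ from a coding transcript only in where their outer ends lie.

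All 8 heart muscle markers examined were present, from 80 and 93 reads for Ryr2 to 9499 and 9718 for Pln (replicates 1 and 2), and the 4 skeletal muscle markers Myh4, Myh2, Tnnt3 and Pvalb had no reads. The libraries differed in other cells' genes. The 3 erythroid markers Hba-a1, Hbb-bs and Alas2 were higher in replicate 1 (Alas2 85 and 36 reads). By contrast, the 3 fat cell markers (Cfd 22 and 312) and the 3 airway markers (Bpifa1 0 and 294) were higher in replicate 2. So were the macrophage markers examined (Lyz2 64 and 123). Endothelial markers (Fabp4 357 and 619, Eng 77 and 68) and fibroblast markers (Col3a1 43 and 89, Col1a1 7 and 7) were mixed. Mouse reads numbered 630211 and 664319, so that 1 read equalled 1.61 and 1.48 CPM (reads scaled to a common library size).

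The sequences below show where intron sequence lies in members with many reads. Each is written in transcript direction, with the splice-site dinucleotides of the intron in capitals, and comes from GENCODE M21 transcripts on build mm10. For members that begin inside an intron, up to 40 intron bases before the acceptor and the next 10 exon bases are shown. Fxyd1-213 carries only 16 intron bases, and all of them are printed; Ss18l2-207 holds the whole first intron of Ss18l2-201.
Fxyd1-213, chr7:31052168-31052193, minus strand: atctgttcctttttAGaactggggaa
Rpl5-204, chr5:107904677-107904726, plus strand: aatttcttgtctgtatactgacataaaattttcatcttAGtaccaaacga
Trdn-204, chr10:33200123-33200172, plus strand: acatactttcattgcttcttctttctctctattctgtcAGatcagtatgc
Fh1-203, chr1:175606173-175606222, minus strand: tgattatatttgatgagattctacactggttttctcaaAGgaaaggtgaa
Rex1bd-207, chr8:70505951-70506000, minus strand: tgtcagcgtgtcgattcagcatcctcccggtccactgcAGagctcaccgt
Hba-a1-202, chr11:32283884-32283933, plus strand: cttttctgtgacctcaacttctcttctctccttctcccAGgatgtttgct
Tnni3-204, chr7:4519565-4519614, minus strand: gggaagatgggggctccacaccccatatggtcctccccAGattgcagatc
Ss18l2-207, chr9:121710472-121710638, plus strand: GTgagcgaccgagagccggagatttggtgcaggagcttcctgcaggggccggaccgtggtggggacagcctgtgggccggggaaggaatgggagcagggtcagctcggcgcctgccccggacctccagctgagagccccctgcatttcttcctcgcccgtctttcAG
The windows of members that begin inside an intron hold AG at the annotated acceptor, and so did nearly all members of this shape. These bases are those of the annotation, and the sequence of the reads was not examined. Of 621 members with at least 22 intron bases at their start, 618 (99.5%) had AG at the end of the intron. It was 99.6% of 8105 such annotated transcripts, a set that includes the 621. The median share of pyrimidines in the 20 bases before that AG was 75% in both sets.

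Retained-intron transcripts took 2.07% of mouse reads in replicate 1 (13047 reads, exact Clopper-Pearson 95% interval 2.04 to 2.11%) and 2.10% in replicate 2 (13971 reads, 2.07 to 2.14%), a mean of 2.09% ± 0.0232 (SD, n = 2). The intervals overlap, and they cover counting error only. They made up 3.11% and 3.23% of the reads on known transcripts of any type. Summed over the genes that had them (719 and 816 genes), they took 9.50% and 8.95% of the gene's reads, 9.23% ± 0.388 (SD, n = 2). Without Cox4i1-204 and Fxyd1-213 the mean was 3.12%.

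Detection was sparse. Only 442 of 1246 members (35.5%) had reads in both libraries, and 665 (53.4%) had a single read in all. Among known protein-coding transcripts with reads, 69.7% of 13426 were in both libraries, while the share was 33.5% of 340 nonsense-mediated decay transcripts and 40.3% of 591 processed transcripts. Their depth differed: the median number of reads over both libraries was 1 for retained-intron and nonsense-mediated decay transcripts, 2 for processed transcripts and 6 for coding ones. Of 173 members with at least 5 reads in 1 library, 165 (95.4%) were found in the other as well. The same share was 98.4% of 6313 coding, 100% of 30 nonsense-mediated decay and 96.5% of 113 processed transcripts.

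The reads were concentrated on very few members. Cox4i1-204 alone held 50.8% and 49.0% of all member reads, and Fxyd1-213 held another 15.5% and 17.7%. Together with Rpl5-204 these 3 members held 71.8% ± 0.727 (SD, n = 2). The 25 members with the highest level held 83.8% ± 0.762, and 128 members with at least 10 reads over both libraries held 91.6% of the reads summed over both.

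**Figure D1:**
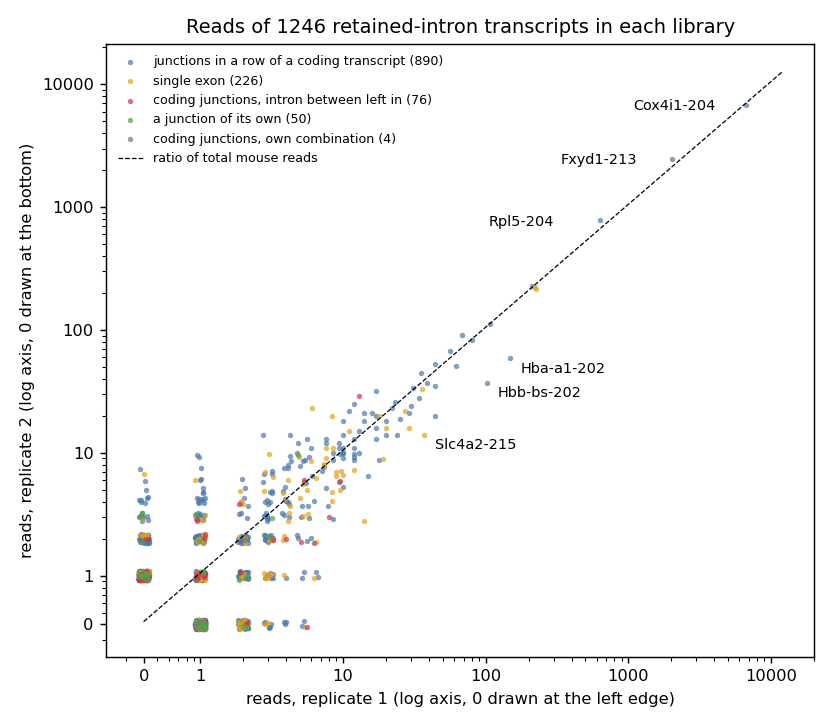
Reads of each of the 1246 retained-intron transcripts in replicate 1 (x axis) and replicate 2 (y axis), both on log axes, coloured by how the member's splice junctions compare with the coding transcripts of its gene; values under 10 are jittered and 0 is drawn at the edges. The dashed line marks the ratio of total mouse reads. Cox4i1-204, Fxyd1-213 and Rpl5-204 stand above the rest, and Hba-a1-202, Hbb-bs-202 and Slc4a2-215 lie to the right of the line.

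The 3 leading members come from genes of the respiratory chain, ion transport and the ribosome. A long read stands for 1 cDNA molecule, so levels were not divided by transcript length. Cox4i1-204 (chr8:120672590-120674113, plus strand, 3 exons, 578 bases), from the gene of a subunit of cytochrome c oxidase, had 6634 and 6841 reads, or 10675 and 10154 CPM. Fxyd1-213 (chr7:31051682-31052193, minus strand, 3 exons, 255 bases) had 2027 and 2478 reads, and its gene encodes phospholemman, a regulator of the sodium pump in the heart. Rpl5-204 (chr5:107904114-107908050, plus strand, 3 exons) comes from a gene for a protein of the large ribosomal subunit and had 636 and 780 reads.

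The next members had much lower levels. Trdn-204, a single exon of 1665 bases in the gene of triadin, which anchors calcium release units of the sarcoplasmic reticulum, had 221 and 225 reads. Ss18l2-207, also a single exon, had 225 and 215 reads, and Fh1-203, from the gene of the citric acid cycle enzyme fumarase, had 211 and 230. These 3 members did not differ from each other beyond the spread between libraries: their mean levels were 345 ± 15.3, 341 ± 30.4 and 340.5 ± 1.31 CPM (SD, n = 2).

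Further down stood Rex1bd-207 (108 and 112 reads), the cardiac troponin I member Tnni3-204 (80 and 83) and Cox17-204 (68 and 91), from the gene of a copper chaperone for cytochrome c oxidase. Psmb6-202, of a proteasome subunit gene, had 56 and 68 reads. Among the 25 leading members, Ndufb10-204 (62 and 51 reads), Ndufa6-206 (44 and 53) and Ndufa7-204 (44 and 35) come from genes of complex I of the respiratory chain. Atp5k-203 (31 and 34) and Atp5j-208 (29 and 21) come from genes of ATP synthase.

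Splice junctions showed what kind of transcript the members were. In 890 members (71.4%) every junction lay in an unbroken row of the junctions of 1 coding transcript of the same gene, so that no junction set the member apart from a part of that coding transcript. These members held 91.3% ± 0.50 of member reads (SD, n = 2). In the annotation as a whole 67.5% of retained-intron transcripts had this shape. Another 226 members (18.1%) were single exons and held 7.57% ± 0.560 of reads.

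The remaining members differed from coding transcripts in their junctions. In 76 members (6.10%) coding junctions flanked an intron that was left in between them, the form in which the junctions on both sides mark the retention. These held 94 and 115 reads, 0.772% ± 0.0726 of member reads (SD, n = 2). A further 50 members had a junction found in no coding transcript (45 and 47 reads), and 4 joined coding junctions in a combination of their own (4 and 3 reads).

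**Figure D2:**
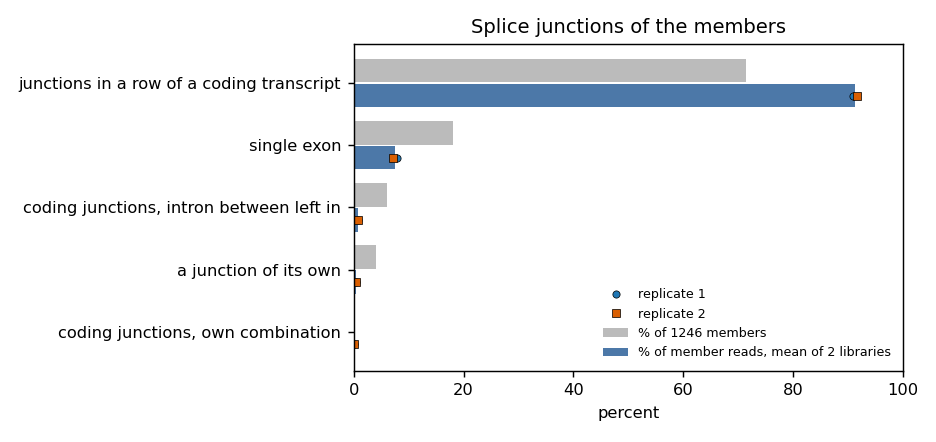
Bars give the percent of the 1246 members (grey) and the mean percent of member reads over the 2 libraries (blue) in each class of splice junctions, with points for the single libraries. Members whose junctions lie in a row of a coding transcript were 71.4% of members and 91.3% of reads, while those with an intron left in between coding junctions were 6.10% and 0.772%.

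Most of the rows of junctions were the last ones of the coding transcript. Members that carried only its last junctions numbered 626 and held 88.9% ± 0.354 of member reads (SD, n = 2), and 246 with only its first junctions held 2.24% ± 0.0905. Correspondingly, 644 members began inside a coding intron and held 91.6% ± 0.146 of reads, whereas 356 ended inside one and held 4.83% ± 0.0660. The stretch of intron at the start was short, with a median of 190 bases (interquartile range 87.8 to 364), and in 71 members it was at most 50 bases.

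The deposited tables give the annotated ends of each known model and not the ends of the reads. A read that carries the last junctions of a coding transcript and stops near the start of an exon, and a read that reaches into the intron before it, can both be counted on such a member. Which of these the reads were was not tested. The intron stretch at the start varied widely among the leading members. It was 16 of 255 bases in Fxyd1-213, 135 of 578 in Cox4i1-204, 465 of 936 in Fh1-203, 603 of 1024 in Rpl5-204 and 1458 of 1665 in Trdn-204.

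The number of reads did not decline evenly along the genes. For Cox4i1 the whole chain of 4 coding junctions had 2857 and 2818 reads, the last 3 junctions 88 and 93, the last 2 junctions, which is Cox4i1-204, 6634 and 6841, and the last junction alone 35 and 45. The form with 2 junctions was thus above both of its neighbours and above the whole chain in both libraries. Cox4i1-204 starts 135 bases before exon 3, in an intron of 3342 bases.

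Fxyd1, Rpl5 and Rex1bd had the same order. The last 2 junctions of Fxyd1 had 2241 and 2725 reads and the whole chain of 7 junctions 384 and 389, with at most 3 reads in a library on chains of 3 to 5. In Rpl5 it was 636 and 780 reads against 18 and 22 for the whole chain of 7. In Rex1bd it was 110 and 112 against 44 and 55 for the whole chain of 4.

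In other genes the whole chain led. Fh1 had 211 and 230 reads on the last 2 junctions, 322 and 398 on the whole chain of 9, and at most 3 reads in a library on the chains of 3, 4, 6 and 7. Hba-a1, the alpha globin gene, had 147 and 59 reads on its last junction and 10067 and 4233 on the whole chain of 2. Among 81 members with only the last junctions and at least 10 reads over both libraries, 41 were above the chain with 1 more junction in both libraries and 39 below it, and for 18 that longer chain had no reads. The 81 were chosen by their own reads, which favours the members in this count. Of 39 members with 2 or more junctions, 21 were above both neighbours in both libraries.

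**Figure D3:**
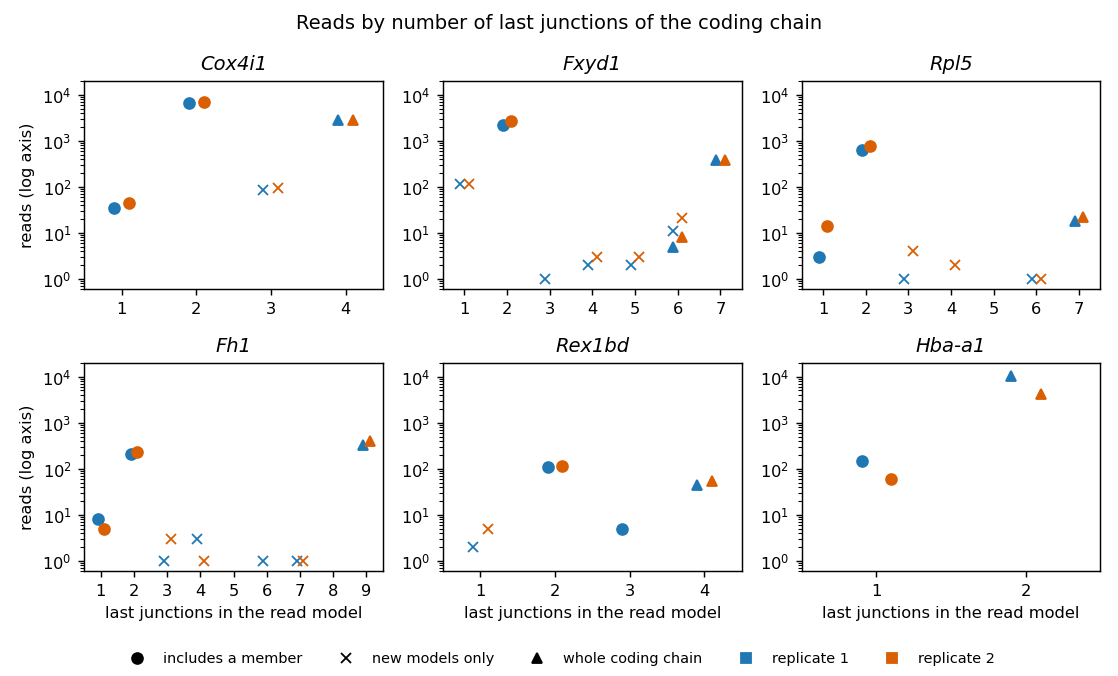
Reads (log axis) by the number of last junctions of the coding chain that a model carries, in 6 genes and both libraries; circles include a retained-intron member, crosses are new models only, triangles the whole coding chain, and chains with no reads are not drawn. In Cox4i1, Fxyd1, Rpl5 and Rex1bd the chain of 2 junctions stands above the whole chain, and in Fh1 and Hba-a1 the whole chain stands above the members.

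In some genes the retained-intron forms held at least 50% of the reads. Among 690 genes that had a member and 10 or more reads in each library, the median share of gene reads on members was 1.69% and 2.38%. It was under 10% in both libraries in 542 genes, at least 10% in both in 74, at least 25% in 34 and at least 50% in 13. Those 13 include genes of very different depth, from 9700 and 9898 reads for Cox4i1 to 11 and 10 for Qsox1, a gene for a sulfhydryl oxidase.

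In 5 of these genes, each with over 100 reads in a library, the 95% intervals lay above 50% in both libraries. Members took 96.2% ± 0.447 of Rpl5 reads, 72.9% ± 2.16 of Fxyd1 reads and 69.2% ± 0.570 of Cox4i1 reads (SD, n = 2). They took 70.0% ± 0.460 of Ss18l2 reads and 66.3% ± 3.03 of Rex1bd reads. Of the 2354 bases of Ss18l2-207, only 167 lie in no exon of a coding transcript of its gene. Coding transcripts held 29.4% and 28.5% of Cox4i1 reads, 13.7% and 11.9% of Fxyd1 reads and 2.71% and 2.66% of Rpl5 reads, here of all reads of the gene. Rpl5 has processed pseudogenes, and the sources used here do not say how reads were divided between such copies.

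The other 8 genes rested on 10 to 66 reads in a library. Cspp1-223, in a gene for a centrosome and spindle pole protein, had 27 of 27 and 22 of 23 gene reads, and lies over Cops5 on the opposite strand. Ift81-203 held 34 of 42 and 28 of 34 reads of a gene for intraflagellar transport, and Iqsec1-208 held 20 of 24 and 16 of 20 reads of a gene for an exchange factor of ARF proteins. Every base of Iqsec1-208 lies in an exon of some coding transcript of its gene. Egfl7-213, in the gene of a protein secreted by endothelial cells, had 36 of 65 and 33 of 65 reads. The intervals of Egfl7, Pcif1, Stau1 and Qsox1 reached below 50% in both libraries and that of Ppdpf in replicate 2, so for these a majority was not shown at this depth.

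**Figure D4:**
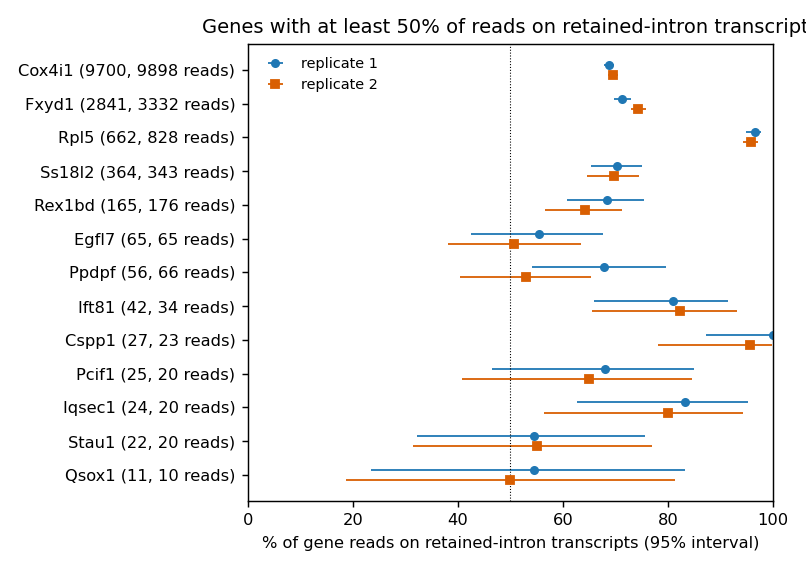
Percent of gene reads on retained-intron transcripts in the 13 genes with at least 50% in both libraries, with exact Clopper-Pearson 95% intervals (counting error only) and the gene's reads in replicates 1 and 2 in brackets. The values of Rpl5 and Cspp1 lie above 95% in both libraries. Their intervals begin at 94.8% and 94.3% for Rpl5 and at 87.2% and 78.1% for Cspp1 (replicates 1 and 2). The intervals widen as the reads fall from Cox4i1 to Qsox1.

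The libraries were compared for each known transcript by an exact binomial test on scaled read numbers. Of 128 members tested 4 were called (3.12%), 3 higher in replicate 1 and 1 in replicate 2, beside 1.92% of all 5877 known transcripts tested, so the members' share stood near the background. The median log2 ratio of replicate 1 to replicate 2 was -0.01 over the members and 0.02 over all known transcripts.

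Of the 3 members higher in replicate 1, a pair belonged to globin genes. Hba-a1-202 had 147 and 59 reads, a ratio of 2.70 (95% interval 1.98 to 3.72, exact binomial test adjusted p = 2.84e-09), and the beta globin member Hbb-bs-202 had 102 and 37 (2.99, 2.03 to 4.48, exact test adjusted p = 1.96e-07). Reads of their genes, the genomic class left out, differed in the same direction, with 10349 and 4361 for Hba-a1 and 4861 and 1920 for Hbb-bs. The members' share of their gene was 1.42% and 1.35% for Hba-a1-202 and 2.10% and 1.93% for Hbb-bs-202. The erythroid markers are these genes themselves and Alas2, which had 85 and 36 reads. Hba-a1 has a near-identical copy in Hba-a2. Its member Hba-a2-202 had 44 and 20 reads and was called only when transcripts with at least 20 reads were tested alone. Fewer cells of a type and less RNA per cell cannot be told apart in these bulk samples.

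The other calls were Slc4a2-215 and Fxyd1-213. Slc4a2-215, a single exon of 2497 bases in the gene of an anion exchanger, had 37 and 14 reads (ratio 2.87, 1.51 to 5.74, exact binomial test adjusted p = 0.0347), and lies over Fastk on the opposite strand. It was not called when transcripts with as little as 1 read were tested too. Fxyd1-213 was higher in replicate 2 by 1.13 times (1.06 to 1.20, exact binomial test adjusted p = 0.00454), a small difference between 2 deeply read values.

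The share of gene reads was tested by Fisher's exact test. Of 802 members tested 0 were called, with 16 at an unadjusted p under 0.05, beside 0.806% called among 7324 known transcripts. The minimum here applied to the reads of the gene and not of the member. At most 128 of the 802 had 10 or more reads of their own over both libraries. For most members a call was therefore hardly possible, and 0 calls do not show that their shares were steadier than those of other transcripts. The smallest unadjusted p among the 4 members called in level was that of Slc4a2-215, whose share was 77.1% of 48 and 42.4% of 33 gene reads (Fisher's exact test p = 0.00224, adjusted p = 0.202). The share of Fxyd1-213 was 71.3% and 74.4% (Fisher's exact test p = 0.00816, adjusted p = 0.471).

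Whole introns were a smaller part of the picture. Only 403 members, with 1164 and 1228 reads, held a coding intron from end to end. In this way 666 introns were held, counted apart where their ends differed. Their median length was 229 bases (interquartile range 109 to 535), against 1203 bases for the 12825 other introns of coding transcripts of the same genes. Annotated retained-intron transcripts of genes that reached 10 reads in both libraries held 2965 introns, a set that overlaps the 666. The median length in that annotated set was 238 bases, close to that of the 666. First introns made up 26.1% of the 666 and last introns 21.02%, against 14.2% and 10.3% of the 2965.

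In sequence the held introns resembled that annotated set. GT at the start and AG at the end were present in 97.4% of the 666 and in 98.3% of the 2965. The longer donor GTAAG opened 16.8% and 21.2%, and median GC content was 54.1% and 51.8%. Of 571 held introns that lie between coding exons, 503 (88.1%) contained a stop codon in the reading frame of the coding transcript, against 87.6% in the annotated set. Only 19 (3.33%) had no such stop and a length that keeps the frame.

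Holding could be measured against splicing in 366 introns that 10 or more reads covered in each library. An intron was included only if a member that holds it had a read in either library, which favours higher values. A covering read either held the intron inside an exon or spliced it at exactly its 2 ends. Reads of all models of the gene were counted here, the genomic class included. The median intron was held in 4.55% of covering reads in replicate 1 and in 4.55% in replicate 2, and 227 of 366 were under 10% in both. With 1 library alone the median was 6.82% in replicate 1 and 7.14% in replicate 2. There the covering reads were needed in that library only, and only introns of members with reads in that library were taken. At least 50% were held in both libraries in 28 introns, 13 of them in the first exon and 14 in a single exon. For 12 of these 28 most of the holding reads were on coding transcripts whose own exon contains the interval. Introns with different ends were counted apart, and reads spliced at other ends were not counted as covering. In Cyc1, 12 and 22 reads held the first intron of Cyc1-207, 100% of its covering reads. For the overlapping first intron of Cyc1-201 they were 1.18% and 2.05%. The 28 thus include introns whose region most reads of the gene splice at other ends.

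Introns inside an inner exon of a member have a junction of the member on both sides. For reads counted on that member, the retention of these introns does not rest on where a transcript begins or ends. There were 52 of these with enough reads, included by the same rule, and their median was 3.62% ± 0.770 held (SD, n = 2 libraries). None of the 52 reached 50% in both libraries, and 8 reached 10% in both. Members supplied 70.9% and 68.0% of the holding reads, and nearly all others were on new models, which are structures outside the annotation. The genomic class was counted with the new models and its part was not separated. Whether the other models that held these introns also had a junction on both sides was not examined.

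**Figure D5:**
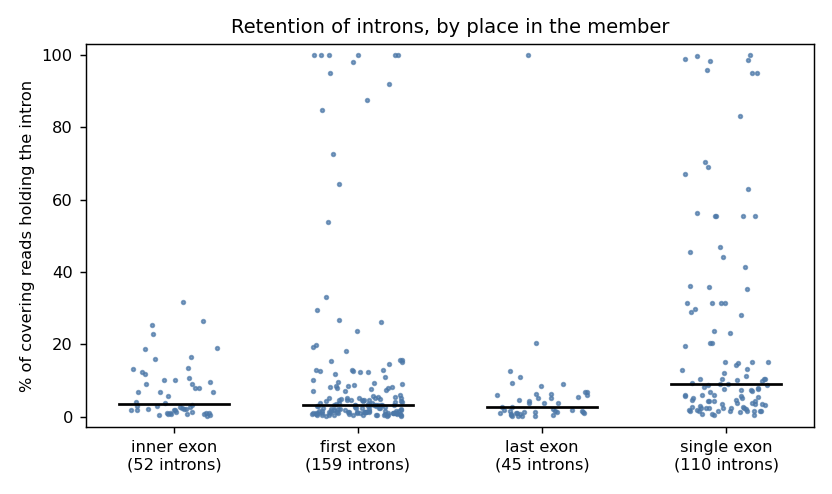
Percent of covering reads that hold each of 366 introns (mean of the 2 libraries), by whether the member holds it in an inner, first, last or single exon; black lines are the medians of each class. Introns in inner exons reach at most 31.8%, while the highest introns in first, last and single exons reach 100%. Of introns held at 50% or more in both libraries, some had most holding reads on coding transcripts. These were 8 of 13 in first exons, 1 of 1 in last exons and 3 of 14 in single exons. Introns with different ends are drawn apart, and reads spliced at other ends are not counted.

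The inner introns with most holding reads came from genes with varied roles. Rsrp1 is a gene for a protein rich in arginine and serine. Its intron 3 of 4, of 1302 bases (chr4:134925433-134926734), lies inside an inner exon of Rsrp1-204. Over all models of the gene it was held by 13 of 60 covering reads in replicate 1 and 30 of 104 in replicate 2, or 21.7% and 28.8%. In Chkb, the gene of a choline kinase, 37.5% and 26.1% of 16 and 23 reads held intron 3 of 10. In Adamtsl5 the values were 30.3% and 7.14% of 33 and 14 reads.

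Of the inner introns within coding sequence and at most 300 bases long, the 5 with most holding reads are printed whole, with GT and AG in capitals. They were picked after their values were seen, because both of their splice sites are marked by junctions on either side.
Mdp1-202, chr14:55660099-55660167, minus strand: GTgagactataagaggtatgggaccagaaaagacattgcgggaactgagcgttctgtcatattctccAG
Fdx1l-203, chr9:21073182-21073263, minus strand: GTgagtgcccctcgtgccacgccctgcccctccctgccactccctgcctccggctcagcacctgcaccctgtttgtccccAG
Mrps24-203, chr11:5707410-5707486, minus strand: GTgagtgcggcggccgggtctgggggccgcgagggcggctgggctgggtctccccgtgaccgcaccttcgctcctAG
Chkb-208, chr15:89428545-89428713, minus strand: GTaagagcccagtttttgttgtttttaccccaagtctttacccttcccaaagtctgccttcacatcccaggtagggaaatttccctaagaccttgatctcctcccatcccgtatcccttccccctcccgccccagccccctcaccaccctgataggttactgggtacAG
Tesc-203, chr5:118056439-118056536, plus strand: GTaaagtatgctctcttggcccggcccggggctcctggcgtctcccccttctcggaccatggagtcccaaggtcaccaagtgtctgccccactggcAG
They were 69 to 169 bases long, with GC contents from 46.4% in Mdp1 to 76.6% in Mrps24. The introns of Mdp1, Fdx1l and Chkb held a stop codon in frame, and those of Mrps24 and Tesc did not but changed the frame. Over all models of the gene, the Mdp1 intron was held by 9 of 48 and 7 of 54 covering reads. The Fdx1l intron was held by 8 of 26 and 7 of 32, and the Chkb intron by 6 of 16 and 6 of 23. In Mrps24, a gene for a mitochondrial ribosomal protein, it was 11 of 181 and 4 of 179 reads. The Tesc intron was held by 6 of 77 in both libraries.

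Many genes for splicing factors are known to control themselves through unproductive splicing. For SR proteins and their kinases 6 of 65 annotated retained-intron transcripts had reads, 5 and 11 in all, out of 344 and 318 gene reads, or 1.45% and 3.46%; over all annotated retained-intron transcripts 5.70% had reads. Srsf2-203 had 3 and 7 of these. For other splicing factors it was 16 of 192 transcripts with 27 and 24 reads (1.59% and 1.21% of gene reads), and U2af1-204, in the gene of the factor that reads the acceptor AG, held 18 and 8 of them. In 10 genes known for regulated intron retention, such as Clk1 and Ogt, 2 of 45 transcripts had reads (1 and 3), and for decay and exon junction factors it was 3 of 22 (1 and 2).

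The sarcomere list holds genes of the heart's contractile apparatus. In it 4 of 29 transcripts had reads, 114 and 117 out of 39344 and 40228 gene reads, or 0.290% and 0.291%; whether this differs from other genes was not tested. Tnni3-204 and Tnni3-202 (23 and 26 reads) gave most of them, and Myoz2-202 had 9 and 6. Among genes for calcium handling and ion channels 5 of 35 transcripts had 7 and 6 reads, with 3 and 2 on Atp2a2-204 of the sarcoplasmic calcium pump. This list does not contain Trdn, whose member Trdn-204 had 221 and 225 reads.

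Respiratory chain genes held 6732 and 6957 member reads on 12 of 46 transcripts, almost all on Cox4i1-204. Cox4i1-203 (35 and 45 reads), Ndufv1-209 (20 and 18), Cyc1-204 (11 and 22) and Atp5b-205 (9 and 12) followed; Ndufb10, Ndufa6 and Ndufa7, described above, are not in this list. Metabolic enzyme genes had 260 and 278 reads on 20 of 86 transcripts, most on Fh1-203, with 15 and 6 on Idh2-206 and 10 and 11 on Acadm-203. Translation genes had 651 and 814 reads on 9 of 74, nearly all on Rpl5-204, and matrix genes 15 and 28 on 2 of 21, both of Sparc. No member of these 10 lists was called by either exact test, and some genes stand in 2 lists.

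Other genes lie over some members. Exon bases were shared with another gene by 250 members (20.1%), 96 of them on the same strand. Rpl5-204 contains Snord21, a small nucleolar RNA gene within an intron, and Cox17-204 overlaps Gm21987 on the same strand. The sources used here do not state how reads between overlapping genes were divided.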

How the data were processed

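Long-read RNA libraries of heart tissue were used as deposited. The values deposited for each transcript model are raw read counts, per the file headers, and TALON is named in the deposited models. Per the labels the build is mm10, and the models carry GENCODE M21 identifiers. The exons of 21848 of 21848 retained-intron transcripts matched that release. Aligner, program versions and read filters: not given in the sources used here. Each library was counted on its own and rows at 0 reads are not listed. Reads on spike-in controls were left out.

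Scaled library sizes used TMM factors of 0.986 and 1.01, from edgeR 4.0.16 in R 4.3.3 over annotated genes with at least 10 reads. An exact binomial test, two-sided, compared levels of known transcripts with 10 or more reads in all. Share of gene reads, with the genomic class left out, was compared by Fisher's exact test, two-sided, where each library had 10 or more gene reads and the gene at least 2 forms. Benjamini-Hochberg adjustment ran over all known transcripts, with calls at 0.05; log2 ratios add 0.5 reads. Introns under 30 bases were not counted. The tests were tested on simulated data. Size factors from DESeq2 1.42.0, other read minimums and other denominators were tried as alternatives. Other steps used Python 3.11.15, numpy 2.4.6, scipy 1.17.1 and matplotlib 3.10.9.

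The members and gene lists were chosen with earlier results of these data known. Named were the 25 members with the highest mean CPM, every called member, up to 15 genes with at least 50% of reads on members in both libraries, and up to 5 members with at least 5 reads per list. Sequences were drawn from at most 12 of these.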

Additional observations from a re-analysis of the deposited data

How the results depend on the processing

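The share of mouse reads rose from 2.09% to 3.17% over known reads only and to 2.28% with genomic-class reads left out; without Cox4i1-204 and Fxyd1-213 it was 0.698%, and over members whose junctions do not lie in a row in a coding transcript 0.182% (both settings chosen after seeing the data). Members in both libraries fell from 442 to 228 at 2 reads each, 106 at 5 reads each and 135 outside such rows; leaving out a replicate left 791 to 897 members in the other. Of the 4 level calls, 1 lay outside such rows and 2 outside hemoglobin genes; 4, 4, 3 and 5 were called with total reads, DESeq2 size factors, no filter and 20 reads. No member was called in share under any of its 4 planned settings. Members took 11.5% of gene reads over known reads only, 3.12% without Cox4i1-204 and Fxyd1-213 and 2.04% as a median over genes. Genes with at least 50% of reads on members numbered 13, and 21 over known reads, 34 at a share of 25%, 5 outside such rows, and 19 to 21 without a replicate. The median intron was held in 4.55% of covering reads. It was 5.14% with introns of any annotated transcript, 4.26% with transcripts with reads, 3.41% over known reads and 0% with only new models holding. Without a replicate it was 6.82 to 7.14%. There the covering reads were needed in the kept library only, and only introns of members with reads in that library were taken. Single-library fits of the tests gave no value, and the cause of the other changes was not tested. No paired analysis was possible because there is 1 group. At 1 read per 1.61 and 1.48 CPM, members with under 10 reads were not tested for level.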
